A study of Mus musculus with 36 samples.

Results

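Livers of chow-fed mice whose only liver X receptor alpha (LXRalpha) was a mutant form were compared with livers of chow-fed control mice. The mutant carries phenylalanine (F) in place of tryptophan (W) at residue 441 and was made with CRISPR. LXRalpha is usually the product of Nr1h3, although the series text writes Nr1h2 beside it, so both genes are reported. The comparison holds 4 homozygous mutants, written F/F, and 4 homozygous controls, written W/W, which are 8 of the 36 mice sequenced. They were chosen by the genotype and diet in the sample labels, with no use of a measured value, and all 16638 expressed genes entered the comparison.

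Liver polyA RNA was sequenced in males of 11 to 12 weeks, 4 for each combination of 3 genotypes with 3 treatments. Both groups compared here received normal chow, no compound and no gavage that the labels mention, and they belong to a cohort separate from the mice on the high fat, high cholesterol diet that promotes metabolic dysfunction-associated steatohepatitis (MASH). Used beside them are 4 heterozygotes (W/F) of the chow cohort, and 4 F/F and 4 W/W mice that ate the MASH diet (Teklad TD.96121) for 4 weeks and were gavaged with vehicle for the last 2 weeks. The labels name no tissue-specific promoter or Cre for the allele. Strain, litter, number of founders and processing date are not given in the sources used here, so the p-values measure the spread between these mice.

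LXRalpha is a nuclear receptor that binds oxidised cholesterol and pairs with the retinoid X receptor on DNA. In hepatocytes it raises fatty acid synthesis, largely through Srebf1, and supports removal of sterols and their conversion to bile acids, while in macrophages it drives cholesterol export and, in the resident macrophages of the liver, part of the identity programme. In the absence of a ligand the receptor binds corepressors and can hold its target genes down. Tryptophan 441 lies in the ligand-binding domain, near the helix that recruits coactivators.

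Expression is given as TPM, transcripts per 1000000 transcripts, a level corrected for gene length and for the library total. The steps between low TPM values gave depths of 21.1 to 32.4 M reads in F/F and 18.1 to 29.1 M reads in W/W mice (M, 1000000). F/F livers had 14070 ± 338 genes with at least 1 TPM and W/W livers 12685 ± 224 (SD, n = 4 each), with no overlap (exact two-sided permutation test over 70 splits, p = 0.0286, the smallest this design allows, and 0.2 after adjustment over 7 measures). The 100 most abundant genes held 49.96% ± 3.03 of TPM in F/F and 54.4% ± 0.723 in W/W (SD, n = 4 each). On the first principal component of the 12 chow livers, which carried 49.3% of the variance, F/F mice 1 and 2 lay at 40.8 and 41.4, F/F mouse 3 at 64.8 and F/F mouse 4 beyond it, and the 8 W/W and W/F mice between -35.6 and -22.3. Of 10 hepatocyte markers, 2 were called higher and 1 lower as deposited, and 0 and 3 after the rescaling described below, and their summed level was 85696 to 108130 TPM in F/F and 84014 to 120860 TPM in W/W mice.

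Differences were tested with limma on log2(TPM + 1), and genes whose p stayed under 0.05 after Benjamini-Hochberg adjustment were called. As deposited, 46.7% of the 16638 genes were called, 43.0% higher in F/F and 3.65% lower. At least 2-fold were 8.99% of genes, 7.68% higher and 1.31% lower. The 4 F/F mice lay apart from the 4 W/W mice in 37.4% of genes, above them in 35.1% and below in 2.36%. TPM sum to a constant, so a fall in abundant genes raises the TPM of others. Here the median gene lay 0.29 higher in F/F on the log2 scale. Whether composition or a broad rise in expression lay behind this was not tested. The libraries were therefore also rescaled by median-of-ratios factors, which brought the median to 0.06, with 28.8% of genes called, 19% higher and 9.85% lower. A rescaling over all genes above 0, added after the data were seen, brought it to -0.0016, with 15.9% called higher and 14.0% lower. Called in both of the first 2 scalings were 3157 genes higher (19%) and 606 lower (3.64%), and the genes named below were called in both unless said otherwise. Values of the 4 mice of a group are listed in the order of their replicate numbers. The differences are fitted on the log2(TPM + 1) scale, which understates the change of genes near or under 1 TPM.

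Among the most abundant transcripts, lipid carriers and male-specific liver products fell. The 10 genes with the largest fall in mean TPM held 16.7% of all TPM in W/W and 10.6% in F/F, and 7 of the 10 were called lower. Among them, Fabp1, the main fatty acid binding protein of hepatocytes, was at 6543, 3736, 4416 and 4281 TPM in F/F and 13442, 8271, 8453 and 8972 TPM in W/W. Apoa2, a structural protein of high density lipoprotein, was at 12254, 10576, 11683 and 11347 TPM in F/F and 23151, 15774, 18424 and 21731 TPM in W/W. Neither gene overlapped between the groups. The major urinary protein gene Mup3 and the apolipoprotein gene Apoc1, described below, were also among the 10. Of the 10 genes with the largest rise in mean TPM, 4 were called as deposited and 1 after rescaling.

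The largest rises that held in both scalings were mostly genes that the W/W liver hardly expressed. Sprr1a (ENSMUSG00000050359), a small proline-rich protein of squamous epithelium, was at 19.4, 22.9, 148 and 309.6 TPM in F/F mice and at 0 to 0.319 TPM in W/W. Ly6d (ENSMUSG00000034634), a membrane protein of the Ly6 family, was at 105, 82.2, 275 and 259 TPM in F/F and 2.76, 1.59, 0.920 and 2.40 TPM in W/W. In both genes all 4 F/F mice were above all 4 W/W mice, and F/F mice 3 and 4 were well above F/F mice 1 and 2. Cpe, a carboxypeptidase that processes prohormones, was also highest in F/F mice 3 and 4, at 19.6, 9.14, 41.3 and 59.2 TPM in F/F and 0.105 to 0.605 TPM in W/W (log2 difference 4.39 ± 0.37 SE, adjusted p 4.04e-10). Tspan8, an epithelial tetraspanin, was at 17.6, 18.5, 30.4 and 40.8 TPM in F/F and 0.450 to 1.24 TPM in W/W. Ubd, a ubiquitin-like protein induced by cytokines, was at 48.2, 31.1, 75.7 and 73.3 TPM in F/F and 2.35 to 3.95 TPM in W/W. The largest falls beside Scd1 were Hsd3b5, Mup7, Inmt and Cd5l. Inmt (ENSMUSG00000003477), an indolethylamine N-methyltransferase, was at 33.3, 21.0, 29.8 and 30.1 TPM in F/F and 1709, 794, 616 and 1132 TPM in W/W (-5.08 ± 0.36 SE, adjusted p 1.29e-11). Csad, which makes the taurine precursor hypotaurine, was at 59.1, 22.8, 36.7 and 46.9 TPM in F/F and 533, 365, 577 and 453 TPM in W/W, with no overlap.

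The receptor transcripts themselves moved little. Nr1h3 was at 109, 95.4, 105 and 101 TPM in F/F and 79.1, 91.1, 107 and 90.9 TPM in W/W, with overlapping mice, and was not called (log2 difference 0.16 ± 0.10 SE, adjusted p 0.209). A change of 1 residue need not alter the transcript level, so this level does not check the genotype labels. Nr1h2, the gene of LXRbeta, was at 30.4, 29.0, 38.1 and 38.0 TPM in F/F and 25.9, 24.0, 22.8 and 25.3 TPM in W/W, which was called as deposited (0.44, adjusted p 0.000909) and not after rescaling (0.15, adjusted p 0.155). Of 12 receptors, retinoid X receptors and corepressors tested, 6 were called higher as deposited, beside 43.0% of all genes, and 0 lower. After rescaling 0 of the 12 were called either way. In the rescaled fit 1 of them reached p under 0.05 before adjustment, and limma-voom on recovered reads called 0. The 6 became 2 without F/F mouse 1 or W/W mouse 1, and 3 without F/F mouse 4 or W/W mouse 2.

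LXR target genes split in both directions. Of 24 tested, 4 were called higher and 12 lower, with a median log2 difference of -0.41 against 0.29 over all genes, and 2 and 13 after rescaling. Without F/F mouse 3 or F/F mouse 4 the higher count was 2. Genes of fat synthesis and lipid transfer were among those that fell. The fall of Scd1 (chromosome 19, bases 44394455 to 44407879, GRCm38) is the largest of any named here: this desaturase, which makes monounsaturated fatty acids, was at 93.5, 53.3, 50.3 and 58.6 TPM in F/F and 3818, 4146, 1423 and 5447 TPM in W/W. W/W mouse 3 was the lowest control and was still far above every F/F mouse. Pltp, the phospholipid transfer protein, was at 8.18, 3.91, 6.54 and 6.22 TPM in F/F and 120.2, 35.96, 33.9 and 101 TPM in W/W (-3.17 ± 0.37 SE, adjusted p 8.57e-08). Lpcat3, which puts polyunsaturated fatty acids into phospholipids, was at 47.0, 29.1, 41.2 and 43.5 TPM in F/F and 90.6, 73.1, 63.2 and 89.5 TPM in W/W (-0.96 ± 0.14 SE, adjusted p 2.84e-06). Neither overlapped between the groups.

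Sterol export genes did not follow the lipogenic targets. Abcg5, one of the 2 subunits of the transporter that puts sterols into bile, was at 120.2, 39.7, 103 and 90.6 TPM in F/F and 95.7, 92.1, 54.5 and 83.8 TPM in W/W, and its partner Abcg8 at 103, 32.1, 82.8 and 75.4 and 78.6, 76.3, 43.9 and 63.4 TPM. F/F mouse 2 was lowest in both genes and the groups overlapped, with log2 differences of 0.04 ± 0.23 and 0.08 ± 0.27 SE (adjusted p 0.913 and 0.843). Abca1, which exports cholesterol to apolipoprotein A-I, was at 30.2, 38.0, 26.1 and 22.0 TPM in F/F and 27.3, 45.1, 38.7 and 36.9 TPM in W/W. It was not called as deposited (-0.34, adjusted p 0.0621), was called lower after rescaling (-0.64, adjusted p 0.00167), and was called lower without F/F mouse 2 (-0.48, adjusted p 0.0108) or W/W mouse 1 (-0.48, adjusted p 0.0136). Abcg1, the exporter to mature high density lipoprotein, was at 3.94, 2.89, 5.18 and 4.29 TPM in F/F and 2.46, 3.63, 2.22 and 2.09 TPM in W/W. It was not called (0.49, adjusted p 0.0852), and was called higher without F/F mouse 2 (0.61, adjusted p 0.0425) or W/W mouse 2 (0.62, adjusted p 0.0470). Among the targets called higher were Abcd2, a peroxisomal fatty acid importer, at 37.6, 29.8, 65.0 and 45.0 TPM in F/F and 22.4, 19.5, 1.98 and 10.9 TPM in W/W, and Arl4c, a small GTPase, at 1.65 to 2.88 and 0.768 to 1.05 TPM. The difference in Abcd2 was 1.93 with all mice and 1.29 without W/W mouse 3, in which the gene was lowest. Mylip, a ubiquitin ligase, was at 6.79, 5.79, 8.17 and 9.74 TPM in F/F and 5.93, 5.94, 3.53 and 5.74 TPM in W/W, with overlap. It was called higher as deposited (0.46, adjusted p 0.0338), but not after rescaling (0.19, adjusted p 0.378), nor without F/F mouse 3 (adjusted p 0.0831), F/F mouse 4 (0.146) or W/W mouse 3 (0.165).

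Genes of fatty acid and triglyceride synthesis fell at most steps. Of 27 genes tested, 3 were called higher and 16 lower, with a median of -0.63, and after rescaling 1 and 19 (-0.85). The transcription factor Srebf1, which switches on the lipogenic enzymes, was at 17.3, 11.3, 13.2 and 15.2 TPM in F/F and 134, 116, 119 and 125 TPM in W/W (-3.04 ± 0.22 SE, adjusted p 1.29e-11). Mlxipl, the glucose-sensing factor ChREBP, was at 90.9, 62.2, 65.4 and 59.3 TPM in F/F and 207, 155, 164 and 207 TPM in W/W (-1.40 ± 0.17 SE, adjusted p 1.11e-07). For both factors the 2 groups were far apart. Among the enzymes, Acaca and Acacb, the acetyl-CoA carboxylases that form malonyl-CoA, were at 2.97 to 6.84 and 2.23 to 6.23 TPM in F/F against 13.0 to 19.3 and 14.7 to 43.6 TPM in W/W. Me1, which supplies NADPH, was at 62.8, 30.3, 57.2 and 73.5 TPM in F/F and 253, 99.5, 115 and 239 TPM in W/W. Acsl3, which activates fatty acids, was at 9.87, 6.48, 8.20 and 10.5 TPM in F/F and 19.7, 32.1, 25.8 and 25.1 TPM in W/W (-1.45 ± 0.18 SE, adjusted p 1.98e-07). No overlap between the groups was seen in these 4 enzymes.

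Fasn, the fatty acid synthase, was at 33.2, 12.7, 21.7 and 22.3 TPM in F/F and 150.3, 166, 82.6 and 185 TPM in W/W (-2.66 ± 0.41 SE, adjusted p 8.52e-06). Thrsp, a lipogenic regulator also called Spot 14, was at 52.7, 7.37, 13.4 and 10.4 TPM in F/F and 663, 249, 183 and 299 TPM in W/W (-4.23 ± 0.67 SE, adjusted p 9.83e-06). In both genes F/F mouse 1 was the highest mutant and F/F mouse 2 the lowest, and the groups did not overlap. The 250 bases upstream of their RefSeq starts are shown because the 2 genes moved together with Srebf1 and Mlxipl. Capitals mark each match to CCAAT, the letters bound by nuclear factor Y, on either strand. On GRCm38.p6, minus strand, the Fasn window is chr11:120824548-120824797 and the Thrsp window chr7:97417551-97417800.
Fasn: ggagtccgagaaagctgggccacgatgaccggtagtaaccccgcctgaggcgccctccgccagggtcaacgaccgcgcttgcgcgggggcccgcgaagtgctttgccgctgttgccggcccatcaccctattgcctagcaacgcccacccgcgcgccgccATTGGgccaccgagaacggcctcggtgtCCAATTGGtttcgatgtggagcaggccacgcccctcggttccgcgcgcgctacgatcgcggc
Thrsp: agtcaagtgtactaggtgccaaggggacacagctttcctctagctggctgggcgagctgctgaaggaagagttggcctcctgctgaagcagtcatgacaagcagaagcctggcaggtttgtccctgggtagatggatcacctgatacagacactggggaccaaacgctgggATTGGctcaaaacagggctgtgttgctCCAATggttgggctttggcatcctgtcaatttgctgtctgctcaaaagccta
The Fasn window holds 3 matches, of which the last 2 overlap, and the Thrsp window holds 2. CCAAT occurs on either strand in 33.8% of 32851 windows of this length in the RefSeq table, at least 2 times in 10.1% and at least 3 times in 2.79%. In the 13814 windows of tested genes these shares are 34.9%, 12.3% and 4.05%. CCAAT occurs in 13 of 27 windows of the 21 fatty acid list genes with an entry (48.1%). A match is a description of these letters and not a site or a cause.

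**Figure D1:**
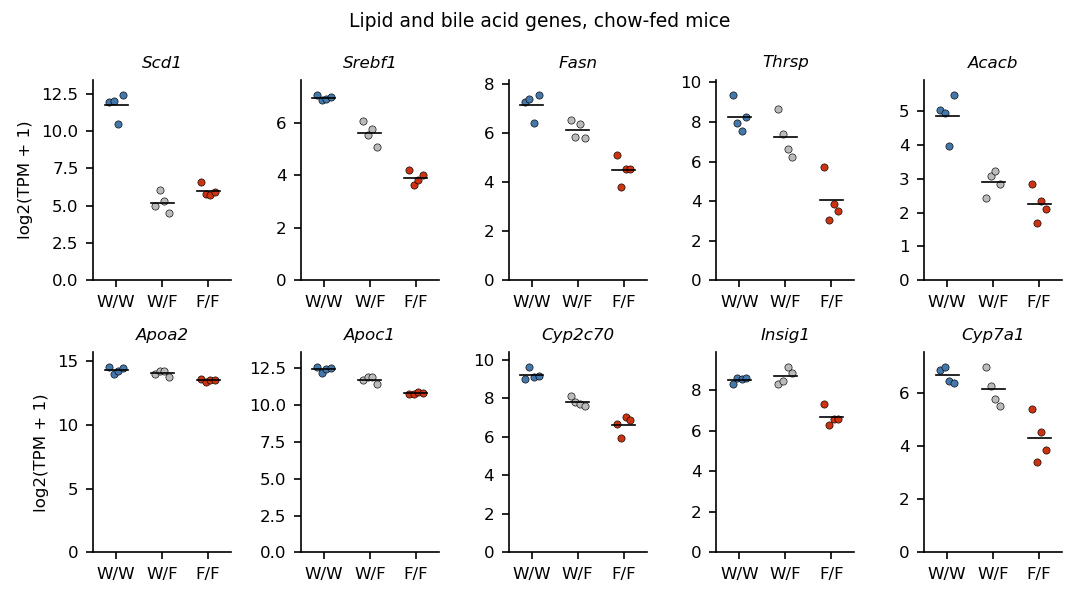
Levels of 10 lipid and bile acid genes as log2(TPM + 1) in the W/W, W/F and F/F mice on chow, with 1 point per mouse and a line at the group mean. All 10 genes are lower in F/F than in W/W with no overlap, and W/F mice lie near F/F for Scd1, between the groups for Srebf1, Apoc1 and Cyp2c70, and near W/W for Insig1 and Cyp7a1.

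Cholesterol synthesis and uptake genes fell in part. Of 26 tested, 4 were called higher and 10 lower, and 1 and 15 after rescaling. Insig1, a sterol-regulated brake on the pathway, was at 159, 76.8, 94.8 and 93.3 TPM in F/F and 309.9, 383, 378 and 388 TPM in W/W (-1.82 ± 0.22 SE, adjusted p 1.53e-07), and did not overlap. Cyp51, a demethylase late in sterol synthesis, went the other way, at 364, 207, 287 and 317 TPM in F/F and 159, 198, 141 and 146 TPM in W/W (0.85, adjusted p 0.00253), but was not called in the rescaling over all genes above 0 (adjusted p 0.0959). The early enzyme Hmgcs1 overlapped, at 352 to 839 TPM in F/F and 315 to 830.2 TPM in W/W, and was not called (0.13 ± 0.21 SE, adjusted p 0.649). The W/F mice stood highest of the 3 genotypes for this pathway. Hmgcs1 was at 1075, 1318, 1566 and 1075 TPM in W/F mice, and Sqle, the squalene epoxidase, at 116, 125, 145 and 163 TPM in W/F against 87.0, 54.4, 52.7 and 67.8 TPM in F/F and 53.8, 87.1, 72.5 and 63.5 TPM in W/W. Of the 26 genes, 22 were called lower in F/F than in W/F and 1 higher, where 3.43% of all genes were called lower and 37.9% higher, and 11 were called higher in W/F than in W/W, where 0.198% of all genes were. The 2 comparisons share the W/F mice.

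Bile acid synthesis was lower at several enzymes. Of 23 genes tested, 4 were called higher and 8 lower, and 3 and 13 after rescaling. Cyp7a1, the rate-limiting enzyme of the main route from cholesterol, was at 41.0, 9.67, 22.2 and 13.5 TPM in F/F and 116, 124, 86.1 and 82.2 TPM in W/W (-2.36 ± 0.45 SE, adjusted p 0.00011). Cyp27a1, which starts the alternative route, was at 283, 179, 215 and 259 TPM in F/F and 556, 489, 509 and 556 TPM in W/W (-1.19 ± 0.12 SE, adjusted p 4.85e-09). The groups did not overlap in either. Cyp2c70, which makes muricholic acids in mice, was at 101, 60.2, 128 and 114 TPM in F/F and 514, 788, 556 and 569 TPM in W/W (-2.61 ± 0.19 SE, adjusted p 2.68e-11). Cyp8b1, which sets the share of cholic acid, overlapped at 366 to 530.4 and 209 to 443 TPM and was not called (0.48 ± 0.31 SE, adjusted p 0.209). Among the genes that rose were 2 transporters. Abcb4, which moves phospholipid into bile, was at 149.7, 88.2, 159.9 and 178 TPM in F/F and 62.9, 51.2, 58.2 and 65.0 TPM in W/W, and Slco1a4, an organic anion importer, was at 41.0, 42.4, 86.9 and 68.8 and 37.3, 16.3, 18.2 and 24.8 TPM.

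Fatty acid oxidation genes under PPAR-alpha moved in both directions. Of 29 tested, 4 were called higher and 9 lower, and 2 and 11 after rescaling. The higher count was 9 without F/F mouse 2, 8 without W/W mouse 1, and 2 without any of F/F mice 1, 3 and 4 or W/W mouse 2. Cyp4a14, a fatty acid omega-hydroxylase, was at 8.03, 5.92, 16.1 and 10.05 TPM in F/F and at 351, 24.3, 95.2 and 270.3 TPM in W/W, where W/W mouse 2 was well below the other 3. Ehhadh, the bifunctional enzyme of peroxisomal oxidation, was at 78.6, 58.4, 76.2 and 73.7 TPM in F/F and 301, 299.5, 227 and 335 TPM in W/W. Cpt1a, the gate to mitochondrial oxidation, was higher, at 379, 398, 386 and 339 TPM in F/F and 215, 240.2, 181 and 169 TPM in W/W (0.91 ± 0.14 SE, adjusted p 1.12e-05). Fgf21, a fasting hormone of the liver, was at 5.19, 2.06, 8.93 and 7.53 TPM in F/F and 1.08, 1.39, 1.30 and 0.442 TPM in W/W. None of these 4 genes overlapped. All 6 Cyp4a genes tested, Cyp4a14 among them, were called lower in both scalings, although members share sequence with each other (29.8% for Cyp4a10 and 43.8% for Cyp4a32).

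Single lipoprotein genes moved in both directions. Apoc1, a small exchangeable apolipoprotein, was at 1685, 1726, 1884 and 1768 TPM in F/F and 6081, 4614, 5678 and 5709 TPM in W/W (-1.64 ± 0.11 SE, adjusted p 6.39e-12). The groups did not overlap, and the mutants were close to each other. Apoa4, an apolipoprotein that rises with liver fat, was at 398, 271, 863 and 725 TPM in F/F and 133, 52.0, 81.9 and 95.0 TPM in W/W (2.56 ± 0.32 SE, adjusted p 2.4e-07). Apobec1, which edits the Apob transcript to its short form, was at 38.9, 44.4, 41.8 and 45.8 TPM in F/F and 14.7, 18.7, 18.2 and 17.3 TPM in W/W. Of 21 genes of lipoproteins and plasma lipases, 6 were called higher and 1 lower, and 2 and 6 after rescaling. Plin2, which coats lipid droplets and rises with stored fat, was at 269, 247, 288 and 343 TPM in F/F and 254, 238, 213 and 292 TPM in W/W and was not called (0.20 ± 0.18 SE, adjusted p 0.376, and -0.10 after rescaling).

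Some male-biased liver genes fell, and F/F mouse 1 stood apart. In mouse liver, pulses of growth hormone keep a male pattern of expression that includes the major urinary proteins and the steroid dehydrogenase Hsd3b5. Of 25 genes tested, 3 were called higher and 9 lower, and 1 and 12 after rescaling. The mean over the 25 genes, on the log2 scale and relative to the W/W mean, was 0.010 in F/F mouse 1, inside the W/W range of -0.20 to 0.17, and -0.90, -1.42 and -1.41 in F/F mice 2, 3 and 4. Hsd3b5 was at 152, 6.79, 1.88 and 1.89 TPM in F/F and 383, 417, 527 and 365 TPM in W/W. F/F mouse 1 kept the highest level and F/F mice 3 and 4 the lowest. The major urinary protein genes followed this order. Mup3 was at 9592, 6931, 3076 and 2597 TPM in F/F and 19998, 16514, 21358 and 20234 TPM in W/W, and Mup7, with 86.7% of its sequence shared with its relatives and so uncertain on its own, at 1451, 88.1, 31.8 and 26.5 and 1783, 4495, 7864 and 3906 TPM. Of 20 Mup genes tested, 16 were called lower and 0 higher in both scalings, with log2 differences of -4.17 for Mup16, -3.78 for Mup14 and -3.39 for Mup1. In 7 of the 20 all F/F mice lay below all W/W mice. Where members share sequence, these calls are not separate results. All Mup genes together held 3.99%, 1.85%, 1.63% and 1.70% of TPM in F/F and 3.06%, 3.42%, 5.93% and 3.40% in W/W. These shares overlapped (exact two-sided permutation test, p = 0.114, adjusted p 0.2). Of 11 female-biased genes tested, 6 were called higher as deposited, 5 after rescaling and 0 lower in either. Cyp2b9, a P450 of female liver, was at 7.84, 30.5, 74.5 and 48.3 TPM in F/F and 0.959, 0, 0 and 0.729 TPM in W/W. F/F mice 3 and 4 were the highest. Igf1, the growth hormone target that circulates, was at 115, 131, 97.7 and 98.0 TPM in F/F and 113, 135, 95.2 and 107 TPM in W/W, with full overlap (-0.03 ± 0.12 SE, adjusted p 0.871).

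**Figure D2:**
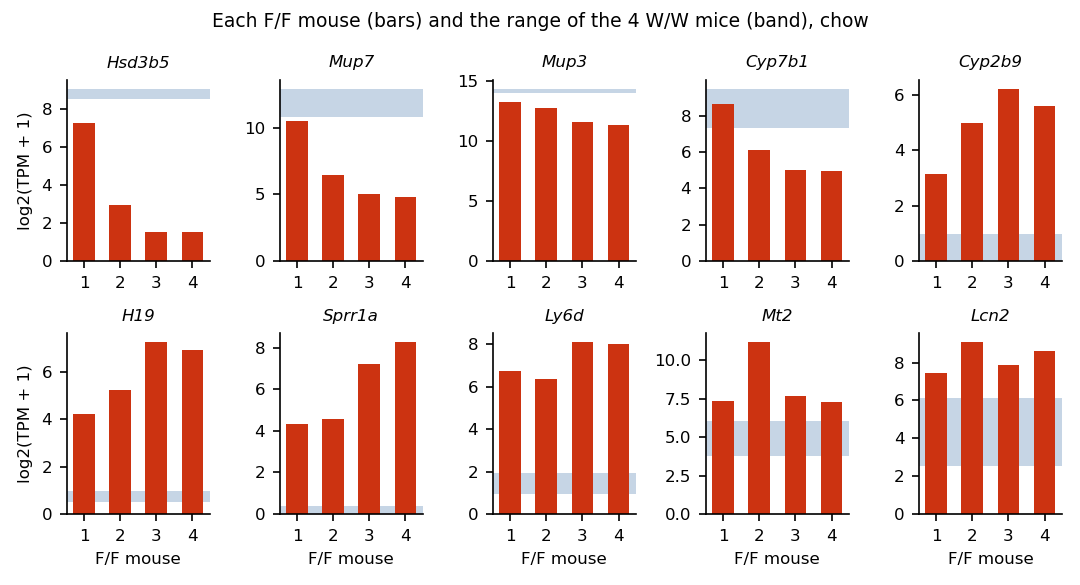
Each F/F mouse on chow (bars, log2(TPM + 1) from 0) with the range of the 4 W/W mice (band) for 10 genes. F/F mouse 1 keeps the most Hsd3b5, Mup7 and Mup3 and has the least H19, F/F mice 3 and 4 have the most H19, Sprr1a and Ly6d, and F/F mouse 2 has the most Mt2 and Lcn2.

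Some markers of the resident Kupffer cells fell, while most of those of monocyte-derived macrophages rose. Of 17 Kupffer cell markers tested, 8 were called lower, 2 higher and 7 not called, in both scalings. As deposited, 3.65% of all genes were called lower and 43.0% higher. The median log2 difference of the 17 was -0.03, or -0.30 after rescaling. Their summed TPM overlapped (481 to 619.9 in F/F and 471 to 673 in W/W). Timd4, a receptor for dying cells on long-lived Kupffer cells, was at 0.0378, 0.0563, 0.0535 and 0 TPM in F/F and 3.55, 4.67, 3.65 and 5.52 TPM in W/W. Clec4f, a lectin found on Kupffer cells, was at 12.4, 13.7, 12.9 and 5.84 TPM in F/F and 42.5, 46.6, 49.2 and 58.1 TPM in W/W (-2.09 ± 0.27 SE, adjusted p 6.02e-07). Cd5l, a secreted macrophage protein and LXR target, was at 1.41, 2.22, 1.60 and 1.39 TPM in F/F and 41.2, 66.1, 56.3 and 67.5 TPM in W/W (-4.45 ± 0.38 SE, adjusted p 4.9e-10). None of the 3 overlapped, and Timd4 was at or near 0 in every F/F mouse while Clec4f was still measured in all 4. The haemoglobin scavenger receptor gene Cd163 was at 0.0753, 0.112, 0.277 and 0.0993 TPM in F/F and 2.78, 2.87, 3.31 and 4.24 TPM in W/W, and Folr2, a folate receptor, and Vsig4, a complement receptor, were also called lower. The 2 that rose were pan-macrophage genes: Csf1r, the receptor that macrophages need to survive, was at 31.3, 26.2, 37.9 and 34.8 TPM in F/F and 10.3, 14.3, 8.18 and 15.6 TPM in W/W, and Adgre1, which encodes F4/80, at 12.0, 8.89, 13.0 and 15.2 and 3.93, 8.16, 3.54 and 5.61 TPM. Adgre1 was not called in the rescaling over all genes above 0 (adjusted p 0.065). In bulk liver, fewer cells of a type and less RNA per cell cannot be told apart.

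Of 16 markers of monocyte-derived macrophages tested, 15 were called higher and 0 lower, with a median of 2.11, and 13 after rescaling. Their summed level was 986 to 1213 TPM in F/F and 306 to 441 TPM in W/W mice. Lyz2, the macrophage lysozyme, was at 513, 376, 604 and 529 TPM in F/F and 43.4, 64.7, 51.5 and 62.6 TPM in W/W (3.16 ± 0.42 SE, adjusted p 8.68e-07). Cx3cr1, a chemokine receptor of monocytes, was at 9.49, 5.89, 10.6 and 13.3 TPM in F/F and 0.247, 0.468, 0.334 and 0.537 TPM in W/W, and Ccr2, which brings monocytes out of the marrow, at 5.06, 3.51, 5.52 and 4.96 and 0.431, 0.663, 0.344 and 0.731 TPM. All 4 F/F mice exceeded all W/W mice in these 3 genes. Lipid-associated macrophages, a state found in fatty tissue, express Gpnmb and Trem2, which are also among the 16 markers above. Gpnmb was at 28.5, 25.7, 47.3 and 37.8 TPM in F/F and 0.342, 0.526, 0.798 and 0.533 TPM in W/W (4.50 ± 0.53 SE, adjusted p 1.09e-07), and Trem2, a lipid receptor, at 5.42, 3.59, 8.58 and 7.50 and 0.208, 0.107, 0.194 and 0.191 TPM. Of 20 genes listed for that state, 14 were called higher and 2 lower, and 12 and 2 after rescaling. Fabp5, a fatty acid binding protein on that list, was lower, at 19.2, 70.4, 26.2 and 21.4 TPM in F/F and 66.0, 122, 64.7 and 61.1 TPM in W/W, with F/F mouse 2 inside the W/W range.

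Antigen presentation and cytokine genes rose beside the macrophage markers. Of 14 genes of MHC class II presentation tested, 8 were called higher and 0 lower, and 6 after rescaling. The class II chain gene H2-Aa was at 115, 85.9, 102 and 81.7 TPM in F/F and 20.3, 17.0, 10.4 and 43.2 TPM in W/W (2.20 ± 0.55 SE, adjusted p 0.00188), and its chaperone Cd74 at 420.4, 288, 346 and 308 and 78.5, 77.4, 36.5 and 142 TPM. W/W mouse 4 was the highest control in both and still below every F/F mouse. Of 31 cytokine and chemokine genes tested, 18 were called higher and 2 lower, and 15 and 2 after rescaling. Tgfb1, the main fibrogenic cytokine, was at 5.15, 4.20, 8.54 and 7.74 TPM in F/F and 2.73, 3.84, 1.49 and 2.92 TPM in W/W (0.98 ± 0.25 SE, adjusted p 0.00248). Il1rn, the antagonist of the interleukin 1 receptor, was at 4.65, 6.30, 5.93 and 7.13 TPM in F/F and 0.681, 1.57, 0.519 and 0.798 TPM in W/W. Il1b itself overlapped, at 2.56 to 3.49 and 0.943 to 3.04 TPM, and was not called (0.55 ± 0.38 SE, adjusted p 0.238). Neutrophil markers were called higher in 6 of 13, and in 6 after rescaling, with summed levels of 216 to 571 TPM in F/F and 11.4 to 70.3 TPM in W/W. Most of each F/F sum came from Lcn2, given below with the acute phase proteins, and without it the sums were 43.0, 23.1, 42.6 and 51.8 TPM in F/F and 6.53, 31.3, 2.49 and 6.94 TPM in W/W, where W/W mouse 2 lay within the F/F range. S100a8, a granule protein, was at 11.6, 5.46, 7.88 and 9.69 TPM in F/F and 0.864, 8.74, 0.395 and 0 TPM in W/W, where W/W mouse 2 lay within the F/F range. Of 14 T and NK cell markers tested, 0 were called in either scaling, with summed levels of 11.7 to 16.2 TPM in F/F and 6.48 to 12.0 TPM in W/W. Cd3e, part of the T cell receptor complex, was below the expression filter, at 0.186 to 0.240 TPM in F/F and 0 to 0.357 TPM in W/W. Of the 14, 0 had an unadjusted p under 0.05, limma-voom on recovered reads called 0, and without F/F mouse 2 limma called 1.

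Collagen and matrix genes rose in nearly all tested members. Of 19 collagen genes, 15 were called higher and 1 lower, with a median of 1.56, and of 42 matrix remodelling genes 38 and 0, with a median of 1.54. After rescaling these counts were 14 and 2, and 36 and 1. Col1a1, the chain of the main scar collagen, was at 45.2, 25.5, 44.3 and 69.1 TPM in F/F and 3.47, 3.76, 2.04 and 3.17 TPM in W/W. Col3a1, which accompanies it, was at 69.7, 38.2, 72.3 and 95.9 TPM in F/F and 7.96, 7.95, 4.28 and 7.22 TPM in W/W (3.12 ± 0.35 SE, adjusted p 4.42e-08). In both genes F/F mouse 2 was the lowest mutant and F/F mouse 4 the highest. Col27a1, a cartilage-type fibrillar collagen, was the 1 member called lower, at 4.42, 2.19, 2.69 and 3.81 TPM in F/F and 10.6, 4.06, 10.9 and 8.61 TPM in W/W. Timp1, an inhibitor of matrix proteases, was at 15.6, 9.23, 19.1 and 28.8 TPM in F/F and 0.193, 0.297, 0.154 and 0.711 TPM in W/W (3.76 ± 0.36 SE, adjusted p 4.04e-09). Lum, the proteoglycan lumican, was at 79.2, 35.5, 74.4 and 84.0 TPM in F/F and 5.32, 4.00, 3.17 and 4.36 TPM in W/W (3.67 ± 0.24 SE, adjusted p 2.85e-12). Spp1, the matrix and signalling protein osteopontin, was at 718, 698, 681 and 933 TPM in F/F and 55.4, 53.7, 45.3 and 43.0 TPM in W/W. All were free of overlap except Col27a1.

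Markers of stellate cells, which make collagen in the injured liver, also rose. Of 17 markers of stellate cells and myofibroblasts tested, 14 were called higher and 0 lower in both scalings, with summed levels of 216 to 412 TPM in F/F and 89.3 to 151 TPM in W/W. Col1a1 and Timp1, given above with the matrix genes, are on this list, so its count and sum are not separate from theirs. Lrat, which stores vitamin A in quiescent stellate cells, was at 14.4, 7.75, 12.6 and 11.8 TPM in F/F and 6.40, 4.83, 5.50 and 6.35 TPM in W/W, and Des, the muscle filament desmin, at 5.87, 3.52, 4.59 and 6.10 and 2.33, 2.11, 1.86 and 2.77 TPM. Acta2, the smooth muscle actin of activated myofibroblasts, was at 7.52, 4.19, 6.40 and 14.1 TPM in F/F and 4.52, 5.11, 6.07 and 5.67 TPM in W/W. It overlapped and was not called (0.41 ± 0.37 SE, adjusted p 0.371), with F/F mouse 4 highest and F/F mouse 2 below every control. The fibrogenic signal genes Pdgfa and Pdgfb, ligands that make stellate cells divide, were at 12.8, 9.02, 15.03 and 14.05 and 3.75, 2.60, 4.07 and 4.76 TPM in F/F against 6.64, 6.17, 6.14 and 6.27 and 1.09, 1.58, 0.610 and 0.937 TPM in W/W. Of 20 genes of fibrogenic signalling, 19 were called higher as deposited, 15 after rescaling and 0 lower. Markers of portal fibroblasts and mesothelium were called higher in 9 of 14 in both scalings, with summed levels of 623 to 1396 TPM in F/F and 324 to 375 TPM in W/W. That list holds the keratin genes Krt8 and Krt19, and Krt19 is counted again below as a bile duct marker. The sum is therefore not particular to these cells. The part of each cell type in the rise of the matrix genes was not tested.

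Bile duct genes rose as well. Of 18 markers of cholangiocytes and the ductular reaction tested, 16 were called higher and 0 lower, and 15 after rescaling. Their summed levels were 1100.0 to 1631 TPM in F/F and 162 to 227 TPM in W/W. Most of each F/F sum, and a smaller part of each W/W sum, came from Spp1, given above with the matrix genes. Epcam, an adhesion protein of bile duct and progenitor cells, was at 16.6, 14.99, 21.6 and 24.1 TPM in F/F and 1.97, 0.711, 0.805 and 2.17 TPM in W/W (3.11 ± 0.30 SE, adjusted p 3.86e-09). Krt19, a keratin of bile ducts, was at 5.58, 5.47, 6.46 and 10.1 TPM in F/F and 1.38, 0.924, 1.77 and 1.59 TPM in W/W (1.69 ± 0.22 SE, adjusted p 5.42e-07). Cd24a, a surface protein of progenitor cells, was at 15.4, 15.4, 17.4 and 21.7 TPM in F/F and 1.69, 2.40, 1.33 and 2.32 TPM in W/W. All 3 were free of overlap, and F/F mouse 4 was the highest in each.

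**Figure D3:**
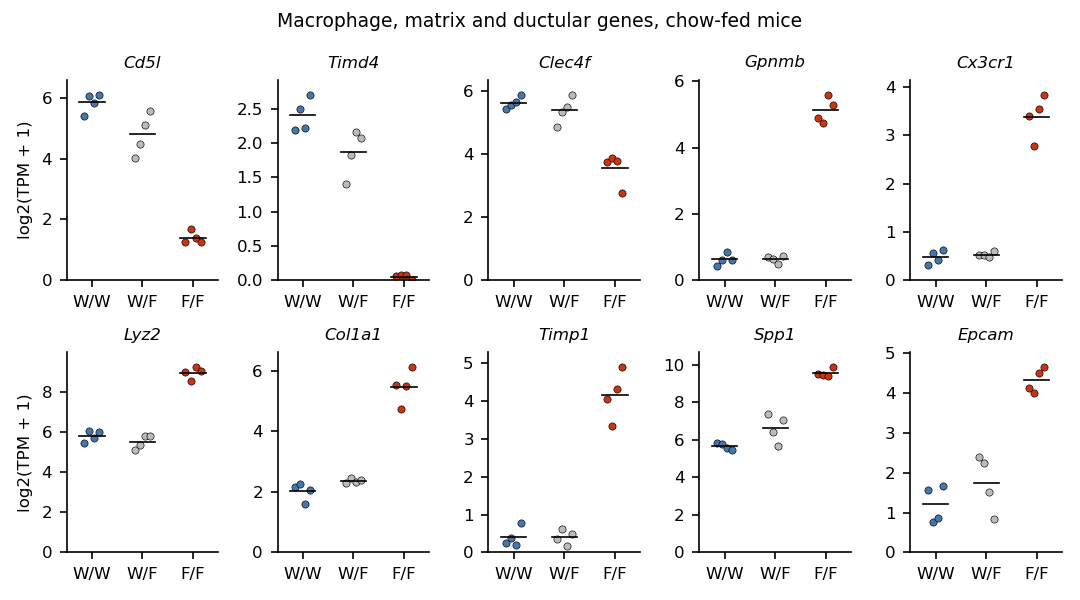
Levels of 10 macrophage, matrix and ductular genes as log2(TPM + 1) in the W/W, W/F and F/F mice on chow, with 1 point per mouse and a line at the group mean. Cd5l, Timd4 and Clec4f are lower and the other 7 genes higher in every F/F mouse than in every W/W mouse, and the W/F mice lie near W/W in most of them.

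Imprinted transcripts of the growing liver rose, among them long RNAs of 2 loci. H19 (chromosome 7, bases 142575529 to 142578143, GRCm38), a noncoding RNA made from the maternal chromosome in fetal liver, was at 17.4, 35.8, 152 and 119 TPM in F/F and 0.433, 0.945, 0.923 and 0.532 TPM in W/W. The F/F mice differed widely among themselves, with mouse 1 lowest and mouse 3 highest, and all lay above W/W. Igf2, its neighbour that is made from the paternal chromosome, was below the expression filter, at 0.187, 0.0855, 0.406 and 0.588 TPM in F/F and 0.165, 0.184, 0.0239 and 0.0919 TPM in W/W. Meg3 (chromosome 12, bases 109541001 to 109571726), from another imprinted domain, was at 31.4, 36.4, 47.1 and 28.1 TPM in F/F and 0.478, 0.445, 0.394 and 0.494 TPM in W/W (4.64 ± 0.20 SE, adjusted p 1.96e-16). Rian, further along the same domain (bases 109603940 to 109661716), was at 18.0, 15.3, 21.7 and 13.3 TPM in F/F and 0.152, 0.151, 0.133 and 0.180 TPM in W/W (3.95 ± 0.18 SE, adjusted p 4.02e-16). For these 2 the F/F mice lay close together. The W/F mice lay in between, at 4.40, 2.19, 3.16 and 3.43 TPM for Meg3 and 1.88, 0.749, 1.21 and 1.74 TPM for Rian, and were called above W/W (adjusted p 4.72e-05 and 0.00172). Of 16 fetal and imprinted growth genes tested, 12 were called higher and 0 lower, and 10 after rescaling. The summed level of the list overlapped, at 347 to 767 TPM in F/F, 781 TPM in W/W mouse 2 and 38.6 to 51.6 TPM in the other W/W mice. Afp, the fetal albumin-like protein, was at 1.89 to 3.80 and 1.504 to 3.37 TPM and was not called (0.44 ± 0.21 SE, adjusted p 0.0943). Without F/F mouse 2 (0.60, adjusted p 0.0247) or W/W mouse 2 (0.61, adjusted p 0.0244) Afp was called higher.

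Cell division genes rose from a low base. Of 30 tested, 27 were called higher and 0 lower, with a median of 1.70, and 26 after rescaling. Their summed level was 288 to 465 TPM in F/F and 87.9 to 117 TPM in W/W. Ccnb2, a mitotic cyclin, was at 15.8, 12.1, 28.8 and 19.9 TPM in F/F and 1.79, 1.72, 1.16 and 1.65 TPM in W/W, and Mki67, a marker of dividing cells, at 5.22, 6.38, 9.61 and 7.76 and 0.281, 1.19, 0.517 and 0.303 TPM (2.40 ± 0.25 SE, adjusted p 1.12e-08). Cdc20, which triggers anaphase, was at 19.8, 24.6, 33.3 and 31.6 TPM in F/F and 0.871, 6.28, 0.953 and 1.97 TPM in W/W. No group overlapped in these genes. Genes of the p53 response also moved, with 13 of 20 called higher and 1 lower, and 10 and 2 after rescaling. Cdkn1a, the p53-driven inhibitor of the cell cycle, was at 7.03, 30.3, 34.3 and 36.8 TPM in F/F and 1.16, 1.42, 2.16 and 3.60 TPM in W/W (3.03 ± 0.45 SE, adjusted p 4.41e-06). F/F mouse 1 was the lowest mutant and still above every control. Phlda3, a p53 target that restrains Akt, was at 7.28, 7.84, 10.9 and 12.1 TPM in F/F and 1.10, 1.10, 0.702 and 1.08 TPM in W/W.

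Cytoskeleton, annexin and surface genes that mark injured epithelium rose in 29 of 30 tested, with a median of 1.78, and in 27 after rescaling. Anxa2, a membrane-binding annexin, was at 25.4, 21.2, 52.3 and 77.9 TPM in F/F and 5.42, 3.92, 2.90 and 4.57 TPM in W/W (2.95 ± 0.35 SE, adjusted p 1.11e-07). Cd63, a tetraspanin of late endosomes, was at 159, 108, 222 and 231 TPM in F/F and 13.0, 9.72, 7.17 and 12.1 TPM in W/W (3.94 ± 0.34 SE, adjusted p 5.29e-10). Lgals3, galectin 3, was at 22.1, 21.8, 39.1 and 39.5 TPM in F/F and 2.72, 2.84, 2.80 and 3.23 TPM in W/W. Each was higher in every F/F mouse than in any W/W mouse, and highest in F/F mice 3 and 4. Lysosomal genes were called higher in 21 of 31 and in 11 after rescaling, where 2 were lower.

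**Figure D4:**
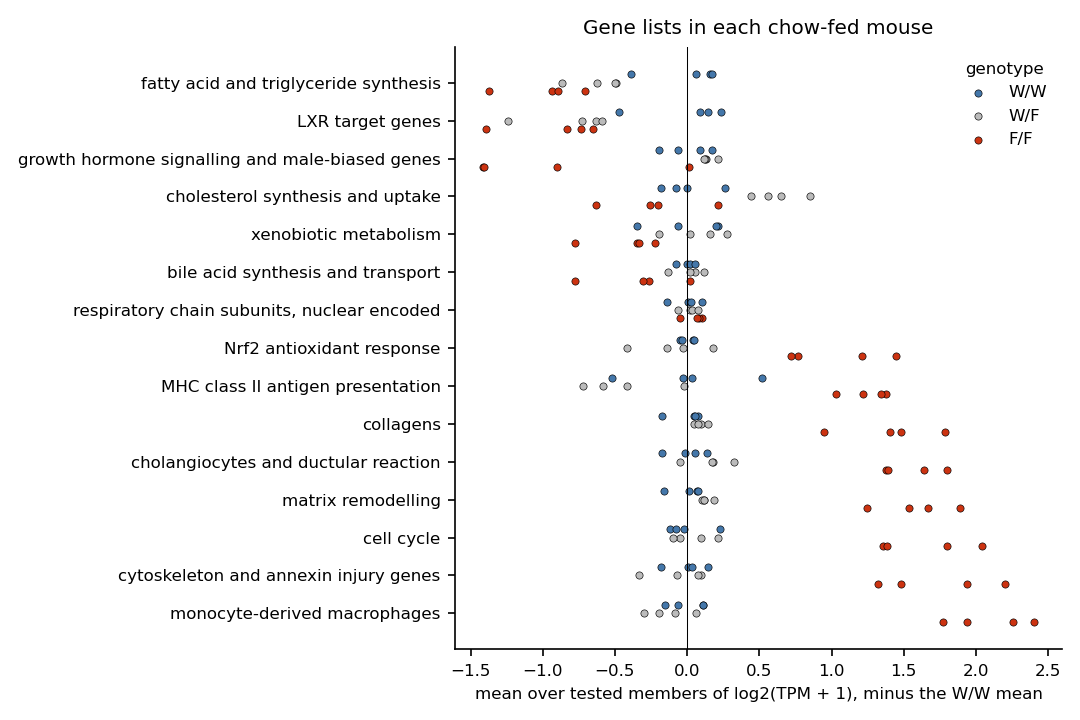
Mean over the tested members of 15 gene lists in each chow-fed mouse, as log2(TPM + 1) minus the W/W mean, with 1 point per mouse coloured by genotype. F/F mice lie left of W/W for fatty acid synthesis and right of every W/W and W/F mouse for the 8 lists from the Nrf2 response to monocyte-derived macrophages, while W/F mice lie right of every other mouse for cholesterol synthesis.

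Antioxidant genes under the factor Nrf2 rose in 13 of 21 tested, with 0 lower, and in 7 after rescaling with 1 lower. Srxn1, which repairs peroxiredoxins, was at 96.4, 83.3, 179 and 347 TPM in F/F and 28.2, 28.5, 36.6 and 34.2 TPM in W/W (2.20 ± 0.30 SE, adjusted p 1.31e-06). Slc7a11, the cystine importer, was at 0.785, 0.729, 2.32 and 5.94 TPM in F/F and at most 0.0098 TPM in W/W. Both were highest in F/F mice 3 and 4. Among amino acid stress genes, Asns, the asparagine synthetase, was at 51.6, 67.3, 42.2 and 41.8 TPM in F/F and 2.60, 30.7, 7.46 and 1.58 TPM in W/W (2.85 ± 0.51 SE, adjusted p 5.82e-05), and Atf3, a stress-induced transcription factor, at 6.98, 5.68, 7.45 and 11.9 and 1.35, 1.22, 1.65 and 0.879 TPM. Herpud1, a target of the unfolded protein response, was lower, at 257, 146, 172 and 170.4 TPM in F/F and 449, 389, 411 and 216 TPM in W/W, and W/W mouse 4 lay inside the F/F range. Of 24 genes of these stress responses, 8 were called higher, a smaller share than the 43.0% of all genes, and 1 lower. After rescaling 5 were called higher, near the share of all genes, and 5 lower.

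The metallothionein genes Mt1 and Mt2, whose proteins bind zinc and copper, stood out in 1 mouse. Mt1 was at 173, 1487, 202 and 162 TPM in F/F and 23.8, 72.1, 44.1 and 17.3 TPM in W/W (3.12 ± 0.86 SE, adjusted p 0.00404). Mt2 was at 161, 2329.6, 199 and 155 TPM in F/F and 12.4, 65.2, 32.1 and 18.8 TPM in W/W (3.58 ± 0.96 SE, adjusted p 0.00331). F/F mouse 2 was far above the other mutants in both, and every F/F mouse exceeded every W/W mouse. Their upstream windows are shown because the 2 neighbouring genes moved together, mouse by mouse. Capitals mark the core of the metal response element, TGCACNC or TGCGCNC, on either strand. On GRCm38.p6, plus strand, the Mt1 window is chr8:94178839-94179088 and the Mt2 window chr8:94172368-94172617.
Mt1: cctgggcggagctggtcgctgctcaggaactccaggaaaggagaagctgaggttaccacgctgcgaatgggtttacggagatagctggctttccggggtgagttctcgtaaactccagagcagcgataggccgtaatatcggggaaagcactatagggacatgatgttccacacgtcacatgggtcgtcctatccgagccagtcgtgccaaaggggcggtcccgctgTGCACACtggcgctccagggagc
Mt2: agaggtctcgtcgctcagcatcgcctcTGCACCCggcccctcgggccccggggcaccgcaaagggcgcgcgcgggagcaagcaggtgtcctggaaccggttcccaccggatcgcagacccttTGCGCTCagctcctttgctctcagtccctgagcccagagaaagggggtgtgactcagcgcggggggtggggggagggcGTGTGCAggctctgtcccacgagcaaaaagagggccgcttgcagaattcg
The Mt1 window holds 1 match and the Mt2 window 3, with no overlap between matches. These letters occur in 21.4% of the 32851 windows, at least 2 times in 5.17% and at least 3 times in 1.26%. In the 13814 windows of tested genes these shares are 28.8%, 7.75% and 1.9%. A match says only that the letters are present in these 250 bases.

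Acute phase proteins varied by mouse, and some of them by genotype. Of 26 tested, 7 were called higher, a smaller share than the 43.0% of all genes, and 0 lower. After rescaling 4 were called higher, also a smaller share than over all genes, and 1 lower. Without F/F mouse 2, 4 were called higher as deposited. Lcn2, the iron-binding protein lipocalin 2, was at 173, 548, 237 and 389 TPM in F/F and 4.86, 10.9, 67.8 and 5.61 TPM in W/W (4.52 ± 1.05 SE, adjusted p 0.000922). Cp, the copper carrier ceruloplasmin, was at 442, 622, 595 and 586 TPM in F/F and 224, 326, 287 and 273 TPM in W/W. Both were free of overlap. Saa1, a serum amyloid gene that shares 31.5% of its sequence with relatives, was not called: it was at 218, 415, 121 and 115 TPM in F/F and 38.8, 115, 2291 and 56.1 TPM in W/W (0.27 ± 1.23 SE, adjusted p 0.879). W/W mouse 3 and, at 3791 TPM, W/F mouse 4 had the highest levels of Saa1, and they also had the highest Lcn2 of their groups, at 67.8 and 418 TPM.

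Some zonal genes of the liver lobule rose and others fell. Glul, the glutamine synthetase of the cells around the central vein, was at 1103, 962, 998 and 1048 TPM in F/F and 647, 474, 631 and 699 TPM in W/W (0.76 ± 0.12 SE, adjusted p 6.62e-06). Oat, which passes ornithine toward glutamate in those cells, was at 1280.0, 1502, 1356 and 1449 TPM in F/F and 659, 646, 656 and 877 TPM in W/W (0.99 ± 0.18 SE, adjusted p 9.32e-05). Rspo3, a Wnt amplifier made by central vein endothelium, was at 7.56, 5.34, 8.13 and 7.76 TPM in F/F and 4.32, 2.39, 2.52 and 3.37 TPM in W/W. Of the periportal genes, Hal, which degrades histidine, was at 129, 119, 129 and 84.9 TPM in F/F and 192, 290.2, 159 and 248 TPM in W/W, and Cyp2f2, a periportal P450, at 877, 557, 547 and 576 and 1367, 1465, 1662 and 1341 TPM. Cps1, the first enzyme of the urea cycle, was at 815, 1271, 968 and 744 TPM in F/F and 1424, 2083, 1372 and 1634 TPM in W/W (-0.79 ± 0.21 SE, adjusted p 0.00298). In all 6 genes the groups did not overlap, whereas Cyp2e1, a pericentral P450, overlapped and was not called (-0.09 ± 0.25 SE, adjusted p 0.797). Of 24 Wnt and zonation genes, 14 were called higher and 4 lower, and 9 and 5 after rescaling.

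Some enzymes of drug and ester metabolism fell. Of 31 xenobiotic genes tested, 2 were called higher and 8 lower, and 0 and 15 after rescaling. Cyp2c29, a P450 induced through the receptor CAR, was at 311, 253, 263 and 224 TPM in F/F and 776, 844, 650.5 and 1120.2 TPM in W/W (-1.67 ± 0.26 SE, adjusted p 7.92e-06). Ces1f, a carboxylesterase, was at 91.7, 52.6, 44.2 and 56.7 TPM in F/F and 406, 297, 351 and 333 TPM in W/W (-2.53 ± 0.21 SE, adjusted p 2.77e-10). Neither overlapped. For nuclear genes of the respiratory chain the scaling decided the direction: of 30 tested, 4 were called higher and 0 lower as deposited, and 0 higher and 14 lower after rescaling, with medians of 0.04 and -0.26. The 4 were 2 without F/F mouse 1 or W/W mouse 2.

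Complement and coagulation genes were called higher in 7 and lower in 1 of 29, and 3 and 9 after rescaling. Urea cycle and amino acid enzymes were called higher in 7 and lower in 5 of 22, and 5 and 11 after rescaling. Hepatocyte transcription factors were called higher in 2 and lower in 1 of 20, and 0 and 6 after rescaling. Interferon-stimulated genes were called higher in 7 and lower in 1 of 25, and 3 and 1 after rescaling, with 4 higher without F/F mouse 4 or W/W mouse 1. Sinusoidal endothelial markers were called higher in 8 and lower in 0 of 18, and 4 and 1 after rescaling. Both higher counts are near the share of all genes, and the 8 became 5 without F/F mouse 3 or W/W mouse 3. Immediate early genes, which respond within minutes to handling, were called higher in 9 and lower in 0 of 15, and 6 and 0 after rescaling, with a median log2 difference of 0.82, or 0.72 after rescaling. Their summed level was 394 to 484 TPM in F/F and 215 to 311 TPM in W/W, without overlap. Genes of glucose metabolism were called higher in 3 and lower in 3 of 19, or 5 higher without W/W mouse 2, and 0 and 5 after rescaling. B cell markers were called higher in 1 and lower in 0 of 10, and 1 and 1 after rescaling. Core clock genes were called higher in 2 and lower in 1 of 18, or 5 lower without F/F mouse 1, and 0 and 7 after rescaling. The marker sums of pancreas and skeletal muscle, which would show carried-over tissue, overlapped between F/F and W/W, at 23.3 to 36.1 and 22.9 to 28.6 TPM for pancreas and 1.07 to 2.82 and 1.03 to 3.66 TPM for muscle.

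The heterozygotes showed which of these differences appeared with 1 mutant copy. In W/F against W/W, 0.487% of genes were called (0.198% higher and 0.288% lower), and in F/F against W/F 41.4%, or 29.0% after rescaling (19.3% higher and 9.69% lower). The comparisons share samples, so values are given side by side. Scd1 was at 30.0, 63.5, 37.8 and 21.8 TPM in W/F, at or below the level of F/F (-6.51 against W/W, adjusted p 5.21e-16, and 0.79 for F/F minus W/F, adjusted p 0.0329, which was not called after rescaling, at 0.52 with adjusted p 0.202). Srebf1 was at 67.1, 45.4, 52.9 and 33.0 TPM in W/F, between the homozygotes (-1.34 against W/W, adjusted p 0.000492, and -1.70 for F/F minus W/F, adjusted p 4.75e-07). Enho, which encodes the peptide adropin, was at 99.1, 88.1, 66.0 and 124 TPM in the heterozygotes, 92.3, 109, 93.7 and 73.9 TPM in the mutants and 25.2, 51.5, 34.4 and 25.4 TPM in the controls, so that both mutant groups lay above all controls. Bst2, the virus-tethering protein tetherin, was lower in both, at 140.0, 166, 215 and 248 TPM in heterozygotes and 160.3, 104, 156 and 163 TPM in mutants against 362, 349.9, 470.1 and 368 TPM in controls. By contrast Gpnmb, Col1a1 and Lyz2 were in W/F at 0.409 to 0.644, 3.89 to 4.53 and 33.3 to 54.8 TPM, where the differences from W/W were not called (0.01, 0.35 and -0.29, adjusted p 1, 1 and 1) and those from F/F were (adjusted p 1.61e-07, 4.48e-07 and 2.91e-07).

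The differences on chow were also set against the same genotypes on the MASH diet with vehicle, in other mice. Of the 7764 genes called on chow, 7247 were called in the same direction on the MASH diet, where 76.5% of all genes were called (69.3% higher and 7.13% lower), and 52 in the opposite direction. The genotype difference itself differed between the diets for 46.0% of all genes (41.5% upward and 4.54% downward), or 27.4% after rescaling (16.3% and 11.1%). Of the 3763 genes called on chow in both scalings, the difference was larger on the MASH diet for 1467 in both scalings, smaller for 98 and not called as different in both for 2198. Diet, gavage and cohort cannot be told apart in this test. Larger on the MASH diet were the falls of Scd1 (-5.73 on chow and -9.09 on the diet, adjusted p of the difference 6.28e-07) and the rises of Gpnmb (4.50 and 8.03, adjusted p 0.000443) and Col1a1 (3.45 and 5.95, adjusted p 0.000671). Smaller were the fall of Pltp (-3.17 and -0.43, adjusted p 0.000142), the rise of Apoa4 (2.56 and 1.20, adjusted p 0.0148) and the fall of Csad (-3.57 and -0.19, adjusted p 6.12e-07). Several genes changed sides. Glul and Oat were higher in F/F on chow and lower on the diet (-1.40 and -0.98, adjusted p of the difference 1.49e-10 and 1.5e-06), and Fabp5 was lower on chow and higher on the diet (-1.31 and 3.38, adjusted p 1.08e-07). Cyp2b9 was called on chow alone (4.56 on chow and -0.09 on the diet, adjusted p of the difference 0.00366), and Abcg5 differed on the diet alone (0.04 and -2.92, adjusted p 1.48e-07).

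**Figure D5:**
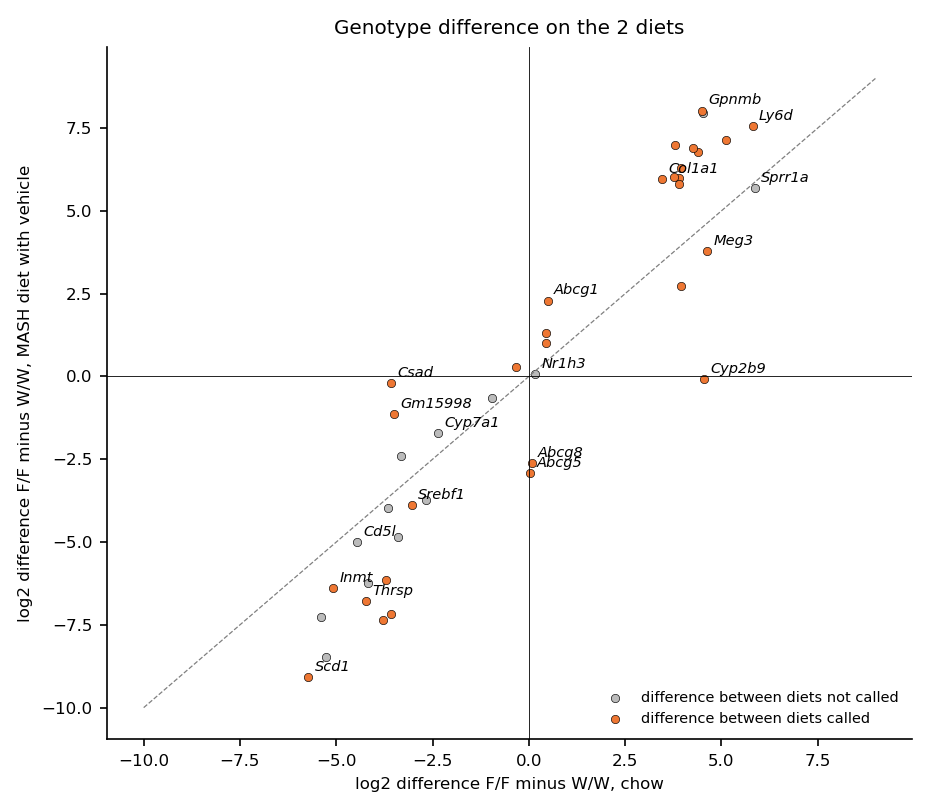
Log2 difference F/F minus W/W on chow (horizontal) against that on the MASH diet with vehicle (vertical), with 1 point for each of 42 genes chosen by size of change on chow or fixed by name, and equal differences on the dashed line. Orange marks an adjusted p under 0.05 for the difference between diets. Gpnmb, Col1a1 and Scd1 lie beyond the line, Csad and Cyp2b9 near 0 on the vertical axis, and Abcg5 and Abcg8 near 0 on the horizontal axis.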

How the data were processed

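Liver polyA RNA-seq of 36 mice was deposited by the authors as 1 table of TPM for 49315 genes. Per the submitters' processing notes, Trimmomatic 0.36, STAR 2.5.2b and featureCounts of Subread 1.5.2 were used with GRCm38 (mm10). The strand setting is not given in the sources used here, so genes overlapped on the other strand are uncertain (Timp1, Csad, Srebf1, Pltp, Cx3cr1, Cdc20, Hsd3b5, Meg3, Lpcat3, Abcg5, Abcg8, Glul and Enho, and Gm15998 with Efna3), as is the pseudogene Gm11843. Lengths and coordinates came from GENCODE M21, and upstream windows from RefSeq GRCm38.p6.

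The 16638 genes that reached 1 TPM in 4 or more libraries were modelled as log2(TPM + 1) by limma (version 3.58.1, R 4.3.3, trend on), with 9 group means, 1 shared estimate of spread and no covariate. Contrasts were two-sided, adjusted by Benjamini-Hochberg over all genes and called under 0.05. Median-of-ratios factors used 10269 genes above 1 TPM in all libraries. Within a tolerance of 0.1 read, 93.6% to 95.7% of low values came out as whole reads, and limma-voom was run on these reads. The scripts were tested on simulated data. Some genes met by the naming rule are not reported here. Members and gene lists were chosen with earlier results of these data known. Named genes were the 15 largest and 15 smallest differences called in both scalings without overlap and with at least 5 TPM in the higher group, up to 4 a list each way with members needed to describe it, 15 fixed genes, and the 10 largest and smallest differences of mean TPM.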

Additional observations from a re-analysis of the deposited data

Results flagged for a closer look

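In 21 of 274 groups of 4 mice examined, 1 mouse lay far from the other 3 by Dixon's ratio, where chance gives about 1 in 20. W/W mouse 1 had 13442 TPM of Fabp1 and 309.9 TPM of Insig1, against a median of 8453 and 383 TPM in the other 3 mice of its group. W/W mouse 3 had 3.53 TPM of Mylip, 4.28 TPM of Col3a1, 0.702 TPM of Phlda3, 470.1 TPM of Bst2, 26.8 TPM of Gm15998 and 0.767 TPM of Gm34654, against a median of 5.93, 7.95, 1.10, 362, 16.9 and 24.6 TPM in the other 3 mice of its group. F/F mouse 4 had 5.84 TPM of Clec4f and 933 TPM of Spp1, against a median of 12.9 and 698 TPM in the other 3 mice of its group. W/W mouse 2 had 0.107 TPM of Trem2 and 122 TPM of Fabp5, against a median of 0.194 and 64.7 TPM in the other 3 mice of its group. F/F mouse 2 had 35.5 TPM of Lum, 1487 TPM of Mt1, 2329.6 TPM of Mt2 and 104 TPM of Bst2, against a median of 79.2, 173, 161 and 160.3 TPM in the other 3 mice of its group. F/F mouse 1 had 7.03 TPM of Cdkn1a and 877 TPM of Cyp2f2, against a median of 34.3 and 557 TPM in the other 3 mice of its group. W/W mouse 4 had 877 TPM of Oat, against a median of 656 TPM in the other 3 mice of its group. The Mup genes took 3.99% of TPM in F/F mouse 1 (median of the other 3 mice 1.7%) and 5.93% in W/W mouse 3 (median 3.4%).

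Of the 42 genes chosen by size of change on chow or fixed by name, the log2 difference F/F minus W/W itself differed between the MASH diet with vehicle and chow for 29 by limma's test of that difference, and for 25 also after rescaling. The 4 that differed as deposited alone were Ly6d (1.747, adjusted p 0.046), Nr1h2 (0.56, adjusted p 0.00281), Abca1 (0.64, adjusted p 0.0152) and Mylip (0.86, adjusted p 0.00594). The 25 are given here together with 5 genes chosen after their values were seen, Pltp, Apoa4, Glul, Oat and Fabp5. The rise in F/F was larger on the MASH diet by 2.00 for H19 (adjusted p 0.00674), 3.53 for Gpnmb (adjusted p 0.000443), 2.40 for Cpe (adjusted p 0.000603), 2.62 for Gm11843 (adjusted p 0.00117), 2.36 for Cd63 (adjusted p 0.000301), 2.09 for Spp1 (adjusted p 0.000195), 1.92 for Tspan8 (adjusted p 0.000186), 3.20 for Ubd (adjusted p 0.00456), 2.27 for Timp1 (adjusted p 0.000819) and 2.5 for Col1a1 (adjusted p 0.000671). It was smaller there, with a difference of -0.86 for Meg3 (adjusted p 0.0156), -1.22 for Rian (adjusted p 0.000422) and -1.35 for Apoa4 (adjusted p 0.0148). The fall in F/F was larger on the MASH diet, with a difference of -3.36 for Scd1 (adjusted p 6.28e-07), -1.32 for Inmt (adjusted p 0.0354), -2.56 for Thrsp (adjusted p 0.0271), -3.57 for Mup14 (adjusted p 0.005), -2.45 for Cyp4a10 (adjusted p 0.0344), -3.60 for Cyp4a14 (adjusted p 0.0206) and -0.85 for Srebf1 (adjusted p 0.0235). The fall was smaller there, with a difference of 3.38 for Csad (adjusted p 6.12e-07), 2.36 for Gm15998 (adjusted p 0.000424) and 2.74 for Pltp (adjusted p 0.000142). Where the difference was not called on chow or had another sign on the diet, the change between diets was -4.64 for Cyp2b9 (adjusted p 0.00366), 1.80 for Abcg1 (adjusted p 0.000103), -2.96 for Abcg5 (adjusted p 1.48e-07), -2.70 for Abcg8 (adjusted p 4.13e-06), 4.70 for Fabp5 (adjusted p 1.08e-07), -2.16 for Glul (adjusted p 1.49e-10) and -1.96 for Oat (adjusted p 1.5e-06). Diet, gavage and cohort cannot be told apart in these values.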

How the results depend on the processing

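The direction of the calls depended on scaling. With median-of-ratios factors 4796 genes were called (3157 higher and 1639 lower), over all genes above 0 4978 (2644 and 2334), and by limma-voom on recovered reads with median-of-ratios factors 4778 (2846 and 1932). The 2-fold count of 1496 was 2949 with a pseudocount of 0.1, and 2741 and 2278 by voom with library totals and median-of-ratios factors. The count for F/F minus W/W between diets was 4555 after rescaling. Leaving out 1 F/F or W/W chow mouse gave 6138 to 8448 calls, 5618 to 7946 higher, 502 to 690 lower and 1320 to 1703 at least 2-fold. The same omissions gave 5296 to 7497 for F/F against W/F and 6704 to 7870 for the difference between diets, with no W/F or MASH diet mouse left out. They gave differences of 1282 to 1545 genes with at least 1 TPM, -5.98 to -3.74 percentage points for the 100 most abundant genes, -0.371 to 0.505 for mitochondrial, -2.23 to -1.002 for Mup, 0.173 to 0.321 for ribosomal protein and -0.00911 to -0.00155 for haemoglobin genes, and 0.461 to 4.97 M reads. With the replicate number as a block 7865 genes were called, and same-numbered F/F and W/W mice deviated with r of 0.0407, 0.0947, -0.0949 and 0.0902, so the numbers were not treated as pairs. The block changed the call of 1 named gene, Abca1 (adjusted p 0.047).

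With median-of-ratios factors the log2 difference turned to -0.14 for Nr1h3, -0.26 for Abcg5, -0.22 for Abcg8, -0.18 for Hmgcs1, -0.10 for Plin2 and -0.029 for Saa1. In the rescaling over all genes above 0 the log2 difference turned to -0.22 for Nr1h3, -0.34 for Abcg5, -0.30 for Abcg8, -0.26 for Hmgcs1, -0.18 for Plin2 and -0.11 for Saa1. By voom with median-of-ratios factors the log2 difference turned to -0.19 for Nr1h3, -0.31 for Abcg5, -0.27 for Abcg8, -0.23 for Hmgcs1, -0.14 for Plin2 and -0.082 for Saa1. By voom with library totals the log2 difference turned to -0.047 for Abcg5 and -0.0083 for Abcg8. Without 1 mouse the difference ranged over 0 in genes that were not called: -0.14 to 0.38 for Abcg5, -0.12 to 0.43 for Abcg8, -0.10 to 0.36 for Hmgcs1, -0.23 to 0.030 for Sqle, -0.11 to 0.061 for Igf1, -0.39 to 1.56 for Saa1 and -0.26 to 0.028 for Cyp2e1. Of 128 named genes, 110 kept direction and call under all 19 alternatives fitted. Of the 128, 113 were called as deposited, and many were chosen for being called there and after rescaling, which is 1 of the alternatives. The count therefore does not measure how stable calls were over all genes. The causes were not tested. Depth limits genes near 1 TPM, where 1 read is worth a large part of the value.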

Other observations

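A pair of unnamed loci beside Gclc on chromosome 9 was nearly silent in both mutant genotypes. The long noncoding RNA Gm34654 (bases 77807036 to 77809793, GRCm38, minus strand) was at 26.6, 17.2, 0.767 and 24.6 TPM in W/W mice, 0, 1.54, 0.217 and 0 TPM in W/F mice and 0, 0, 0.435 and 0.608 TPM in F/F mice. The processed pseudogene Gm19572 (bases 77851708 to 77852045, plus strand) was at 53.5, 26.9, 2.43 and 40.4 TPM in W/W mice, 1.42, 2.79, 1.37 and 0 TPM in W/F mice and 0.486, 0.724, 2.41 and 0 TPM in F/F mice. W/W mouse 3 stood apart from the other controls in both, and was also the control with the least Scd1, Abcd2 and Fasn and the most Saa1. W/F against W/W was called lower for both (adjusted p 0.000392 and 0.00509).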
